A study of Mus musculus with 4 samples.

Results

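In MC38 cells, 63 genes were lower under hypoxic than under normoxic conditions both without and with IFN-γ. They were chosen by their CPM, the count of a gene scaled by the total count of its library. A member had at least 200 counts in both normoxic libraries and a log2 ratio of hypoxic to normoxic CPM, with 0.1 CPM added to each, at or under -0.35 in both pairs. This threshold leaves at most 78.5% of the normoxic level. Genes for CC and CXC chemokines, for cytoplasmic and mitochondrial ribosomal proteins and those encoded by mitochondrial DNA were left out, which removed 1 gene, Ccl2. Of the 27179 genes in the table, 9763 had enough counts and 64 of these, or 0.656%, met the thresholds before Ccl2 was removed. In the control pair alone 2.68% of genes with enough counts met the threshold, and in the IFN-γ pair alone 2.49%. By the mirrored rule, 264 genes, or 2.7%, were higher in both pairs.

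MC38 is a mouse colon carcinoma cell line, labelled as wild type, and was sequenced as 1 poly-A RNA library for each of 4 conditions. The control cells received no IFN-γ and were kept at 20% oxygen (control normoxia) or 1.5% oxygen (control hypoxia). The other cells received IFN-γ at 5 ng/mL for 24 h at the same 2 oxygen levels (IFN-γ normoxia and IFN-γ hypoxia), and the length of the hypoxic culture is not given in the sources used here. No condition had a replicate, so no difference between single libraries has a replicate check, and the intervals below cover counting error only. The libraries held between 34302971 and 34537939 counts. Of 7 epithelial markers, Cdh1 and Cdx2 were at 0 in every library, and Epcam had 2 counts in control normoxia and 0 elsewhere. Krt8 had the most, with 90, 56, 56 and 48 counts in control normoxia, control hypoxia, IFN-γ normoxia and IFN-γ hypoxia. The 7 together summed to between 63 and 101 counts. All 5 fibroblast markers were above 3 counts in at least 1 library, Lum only in control hypoxia with 4. The 5 together summed to 4163 and 4688 in the control libraries under normoxic and hypoxic conditions and to 3644 and 3409 with IFN-γ. Most of these counts came from Col3a1 (2859, 3238, 2373 and 2233 in the order given for Krt8) and Pdgfra (1177, 1341, 1175 and 1077). Col1a1 had 66, 33, 42 and 29. The cells labelled as colon cancer thus lacked the defining epithelial transcripts Cdh1 and Cdx2. Leukocyte markers summed to between 80 and 103 counts and endothelial markers to between 26 and 50, and the part of any of these markers in the results was not tested. In bulk RNA, fewer cells of a type and less RNA per cell cannot be told apart.

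Cells short of oxygen stabilise hypoxia-inducible factors, which raise genes for glycolysis, oxygen delivery and pH control, and many growing cells at the same time make fewer ribosomes. Ribosome assembly takes place in the nucleolus, where RNA polymerase I transcribes the ribosomal RNA and large protein and snoRNA complexes fold, cut and modify it. Polyamines, folates and nucleosides feed the same growth programme, and the transcription factor MYC, which binds the E-box CACGTG, is known to drive many of its genes. The members were ordered here by these roles: 9 act in ribosome assembly and rRNA processing, 5 in RNA modification, 6 in polyamine, folate, cobalamin and nucleoside supply, 10 in transcription and chromatin, 8 in signalling, at the cell surface or in the matrix, 6 in mitochondria, 4 in translation, splicing and protein folding, 3 in glycosylation and 3 in other metabolism and transport, 4 are long noncoding RNAs and 5 were placed in no role.

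Promoter sequence was printed for 3 members on which the sequence results below turn. Atoh8 had the lowest mean ratio of all members and Qtrt1 the largest shortfall among the RNA modification enzymes, and both promoters hold the E-box. Rrp9, a protein of the U3 snoRNP that was chosen for comparison, has none. Each stretch runs from 250 bases before to 3 bases after a transcription start of RefSeq on GRCm38.p6, is written 5′ to 3′ on the strand of the gene, and has the E-box in capitals.
Atoh8 (chr6:72235575-72235827, minus strand): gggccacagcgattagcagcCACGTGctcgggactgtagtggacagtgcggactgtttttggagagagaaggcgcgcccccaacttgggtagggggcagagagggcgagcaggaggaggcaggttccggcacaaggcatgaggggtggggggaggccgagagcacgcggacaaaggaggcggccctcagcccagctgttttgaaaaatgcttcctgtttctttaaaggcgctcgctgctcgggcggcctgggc
Qtrt1 (chr9:21411587-21411839, plus strand): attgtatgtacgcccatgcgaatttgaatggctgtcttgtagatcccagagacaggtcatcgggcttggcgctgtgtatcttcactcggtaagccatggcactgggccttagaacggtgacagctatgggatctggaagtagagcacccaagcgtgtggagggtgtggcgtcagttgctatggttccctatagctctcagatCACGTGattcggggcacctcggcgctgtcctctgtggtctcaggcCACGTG
Rrp9 (chr9:106477059-106477311, plus strand): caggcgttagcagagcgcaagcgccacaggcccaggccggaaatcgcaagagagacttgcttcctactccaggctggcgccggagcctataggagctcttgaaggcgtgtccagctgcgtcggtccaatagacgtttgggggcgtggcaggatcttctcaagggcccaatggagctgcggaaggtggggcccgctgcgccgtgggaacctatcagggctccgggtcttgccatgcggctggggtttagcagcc
The E-box of Atoh8 begins 230 bases before the start, and those of Qtrt1 begin 48 and 3 bases before the start.

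As a group, the 63 members shrank from 0.4356% to 0.3223% of all counts in the control pair and from 0.4315% to 0.316% in the IFN-γ pair. Their summed counts were 149436 in control normoxia, 111239 in control hypoxia, 149033 in IFN-γ normoxia and 108782 in IFN-γ hypoxia. The 2 normoxic sums lay close together and the 2 hypoxic sums lay well under both. These values are what the members were chosen by and are given as a description. The median log2 ratio was -0.45 in the control pair (range -0.85 to -0.35) and -0.45 in the IFN-γ pair (range -0.96 to -0.36), against medians of -0.01 and -0.01 over all 9763 genes. For most members the shortfall was modest: the mean over both pairs was above -0.5 for 43 members, at or under -0.5 for 20 and at or under -0.6 for 7.

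**Figure D1:**
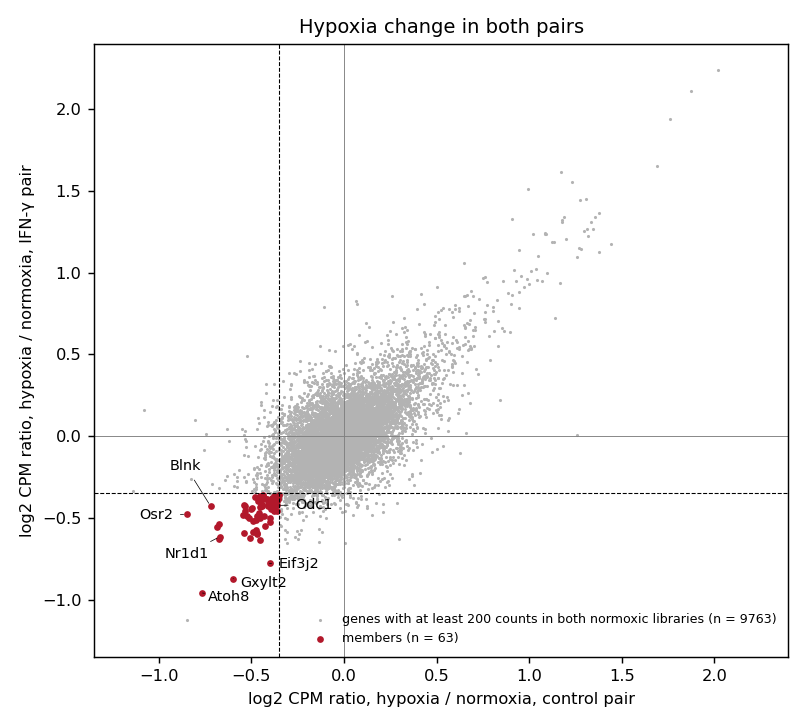
Log2 ratio of hypoxic to normoxic CPM in the control pair (x axis) and in the IFN-γ pair (y axis) for the 9763 genes with at least 200 counts in both normoxic libraries (grey) and the 63 members (red), with dashed lines at the threshold of -0.35. The members sit at the near edge of the lower left corner, and Atoh8 has the lowest mean of both ratios among them. The grey point beyond Atoh8 is Ccl2.

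Every member had more CPM in both normoxic libraries than in both hypoxic ones, a pattern that 28.7% of the 9763 genes share and that the rule itself largely fixes. The highest library was control normoxia for 35 members and IFN-γ normoxia for 28, and the lowest was IFN-γ hypoxia for 40 and control hypoxia for 23. All 63 had a 95% counting interval (exact, Clopper-Pearson) under 0 in both pairs, and 14 had both intervals wholly at or under -0.35: Atoh8, Gxylt2, Nr1d1, Ier5, Qtrt1, Armc6, Pop1, Slco4a1, Slc19a1, Srm, Mdn1, Pwp2, Twist2 and Tbl3. That the intervals lie under 0 is largely fixed by the threshold together with the minimum count. The intervals come from the same counts that chose the members. The threshold cuts through a continuum. The members just inside it by the larger of their 2 ratios were Slc39a14 (-0.35 and -0.36 in the control and IFN-γ pairs), Prmt7 (-0.35 and -0.39) and Dffb (-0.36 and -0.39). Just outside were Ice2 (-0.35 and -0.49), Aen (-0.35 and -0.37) and Gfod1 (-0.35 and -0.38), whose larger ratios missed the threshold in the third decimal.

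**Figure D2:**
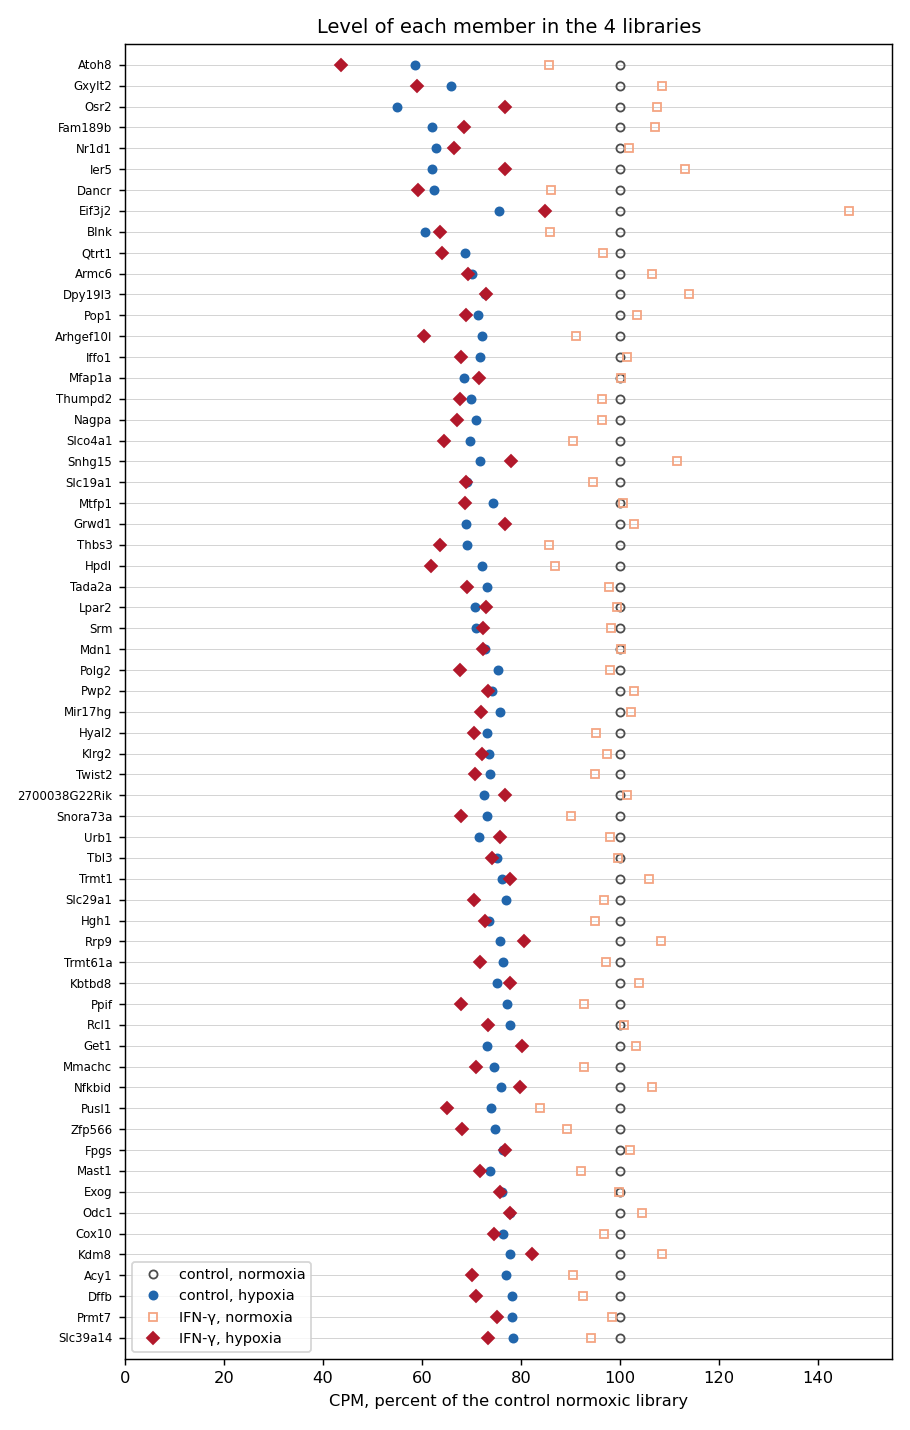
CPM of 62 of the 63 members as a percent of its value in control normoxia (x axis), ordered from the lowest mean ratio at the top, with open symbols for normoxic and filled symbols for hypoxic libraries, 1 library each. In every line the 2 filled symbols lie left of the 2 open ones, and Atoh8 in IFN-γ hypoxia is the farthest left.

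By the mean of both ratios, the lowest members were Atoh8, Gxylt2, Osr2, Fam189b, Nr1d1, Ier5 and Dancr, which fall in several roles. Atoh8, a basic helix-loop-helix factor, had 529 counts in control normoxia, 312 in control hypoxia, 456 in IFN-γ normoxia and 232 in IFN-γ hypoxia. The 2 hypoxic libraries did not reach either normoxic one, and the ratios were -0.76 (95% counting interval -0.98 to -0.57) and -0.96 (-1.20 to -0.74). It was the only member with both ratios at or under -0.7. Osr2, a zinc finger factor of limb, palate and kidney development, had 244, 135, 264 and 188 counts in the same order. Its shortfall was larger in the control pair (-0.85, interval -1.18 to -0.55) than in the IFN-γ pair (-0.48, -0.76 to -0.21), but at these low counts the intervals overlap.

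Nr1d1 encodes REV-ERBα, a nuclear receptor that binds haem and represses clock genes, and had 844 counts in control normoxia, 533 in control hypoxia, 865 in IFN-γ normoxia and 562 in IFN-γ hypoxia. The ratios of -0.67 and -0.61 were alike with and without IFN-γ. A list of clock genes was drawn up after the values were seen. Of its 15 other genes with enough counts, 2 (13.3%) were lower in both pairs, here and below meaning both ratios under 0. The median ratios of the 15 were 0.09 and 0.19. Nr1d2, the paralog of Nr1d1, had 1203, 942, 1107 and 874 counts and ratios of -0.36 and -0.33, the latter just outside the threshold. Bhlhe40, another repressor of the clock, went the other way, from 2410 to 4823 counts in the control pair and from 1841 to 5243 in the IFN-γ pair.

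Ier5, an immediate early gene whose product acts with the heat shock factor HSF1, had 1118 counts in control normoxia, 697 in control hypoxia, 1272 in IFN-γ normoxia and 860 in IFN-γ hypoxia. The hypoxic library with IFN-γ stood above the hypoxic control, and the normoxic ones were in the same order. Twist2, a basic helix-loop-helix factor of mesenchyme, was far more abundant in counts, at 5689, 4215, 5435 and 4038, and its ratios of -0.44 and -0.42 had narrow intervals (-0.50 to -0.38 and -0.48 to -0.37). The other 5 transcription and chromatin members were the ATAC adaptor Tada2a, the NF-κB regulator Nfkbid, the zinc finger protein Zfp566, the JmjC protein Kdm8 and the arginine methyltransferase Prmt7. Over the 10 members of this role, the median ratios were -0.45 and -0.45.

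The 9 members that build ribosomes belong to several steps of the process, and their ratios were close to each other, from -0.54 to -0.36 in the control pair and from -0.59 to -0.37 in the IFN-γ pair. Pop1, the large protein shared by RNase P and RNase MRP, which cut precursors of tRNA and rRNA, had 3348 counts in control normoxia, 2399 in control hypoxia, 3484 in IFN-γ normoxia and 2313 in IFN-γ hypoxia. Mdn1, the AAA ATPase midasin that strips assembly factors from the large subunit, had 3861, 2825, 3891 and 2797. In both genes the 2 normoxic counts differed little from each other, as did the 2 hypoxic counts. Pwp2 and Tbl3 are both subunits of UTP-B, a complex that binds the nascent rRNA for the small subunit. Pwp2 had 3468, 2584, 3592 and 2552 counts, and Tbl3 had 5497, 4157, 5516 and 4083.

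Grwd1, a WD-repeat protein of large subunit assembly, had 2144 counts in control normoxia, 1485 in control hypoxia, 2218 in IFN-γ normoxia and 1649 in IFN-γ hypoxia. Rrp9, whose promoter is printed above, had 5049, 3852, 5503 and 4079, and Rcl1, which is needed to process the small subunit rRNA, had 3207, 2510, 3254 and 2357. The remaining ribosome members were Urb1, a large subunit factor (-0.48 and -0.37), and the small nucleolar RNA Snora73a (-0.45 and -0.41). Snora73a lies inside Snhg3 in RefSeq, and it had 422, 310, 383 and 287 counts against 89, 69, 95 and 78 for Snhg3. The libraries were made from poly-A RNA, and whether these counts came from the small RNA or from a longer host transcript was not tested.

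Of 56 ribosome biogenesis genes with enough counts, from a list chosen for this nucleolar machinery, 52 (92.86%) were lower in both pairs, against 37.56% of all 9763 genes. Their median ratios were -0.22 in the control pair and -0.27 in the IFN-γ pair. In edgeR's quasi-likelihood test over all 13580 tested genes, with IFN-γ as a second term, 42 of the 56 were lowered and 0 raised by hypoxia at a Benjamini-Hochberg adjusted p under 0.05, against 6.83% of tested genes lowered and 8.23% raised. The 13580 genes also hold those with too few counts for the rule, which the test calls less easily, so these shares differ in depth. The 56 include the 3 members named next. With 1 library per condition the model has the limit given below for IFN-γ. The hypoxia calls were made by this model alone. The list holds 3 members (Grwd1, Rrp9 and Rcl1), or 5.36% of it against 0.645% of all genes with enough counts, and the same contrast had chosen them. Of the 53 list genes that are not members, 49 (92.5%) were lower in both pairs, with medians of -0.21 and -0.27. The ratios of Ncl, nucleolin, were nearer 0 than those of any member (-0.14 and -0.24), from 93071 counts in control normoxia, 84740 in control hypoxia, 96546 in IFN-γ normoxia and 81640 in IFN-γ hypoxia. By contrast Fbl, the rRNA methyltransferase fibrillarin, had ratios of 0.03 and -0.10.

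Lists of the subcomplexes around the members were drawn up after the values were seen and are described with no test. The members, which the rule fixes as lower, are left out. The UTP and snoRNP lists share genes such as Heatr1 and Nop56 with the ribosome biogenesis list, so they partly recount it. Lower in both pairs, against 37.56% of all 9763 genes, were 10 of 10 other UTP-B and t-UTP genes (medians -0.16 and -0.27). So were 6 of 8 other box C/D and U3 snoRNP proteins (-0.09 and -0.24). The same held for 8 of 9 other RNase P and RNase MRP proteins (-0.17 and -0.09). Of 9 other large subunit assembly factors listed with Mdn1, Urb1 and Grwd1, 8 were lower (-0.17 and -0.19). The exception was Nvl (0.04 and -0.04). Some of the lower ratios were close to 0, as for Wdr3 in the control pair (-0.01) and Pop7 (-0.01 and -0.02). Of the other pathway lists, those with at least 10 genes lowered by hypoxia in edgeR were as follows. Nucleotide synthesis had 14 of 25 genes lowered and 0 raised, translation initiation and elongation 15 of 40 and 0, DNA replication 12 of 53 and 1, and mitochondrial import and chaperones 10 of 34 and 1. Serine, one-carbon and ATF4 targets went both ways, with 10 of 29 lowered and 7 raised. None of these 5 lists holds a member, and members make up 0.645% of all genes with enough counts. The hypoxia response list, in which 33 of 35 genes were raised and 1 was lowered, marks the hypoxic libraries as such.

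**Figure D3:**
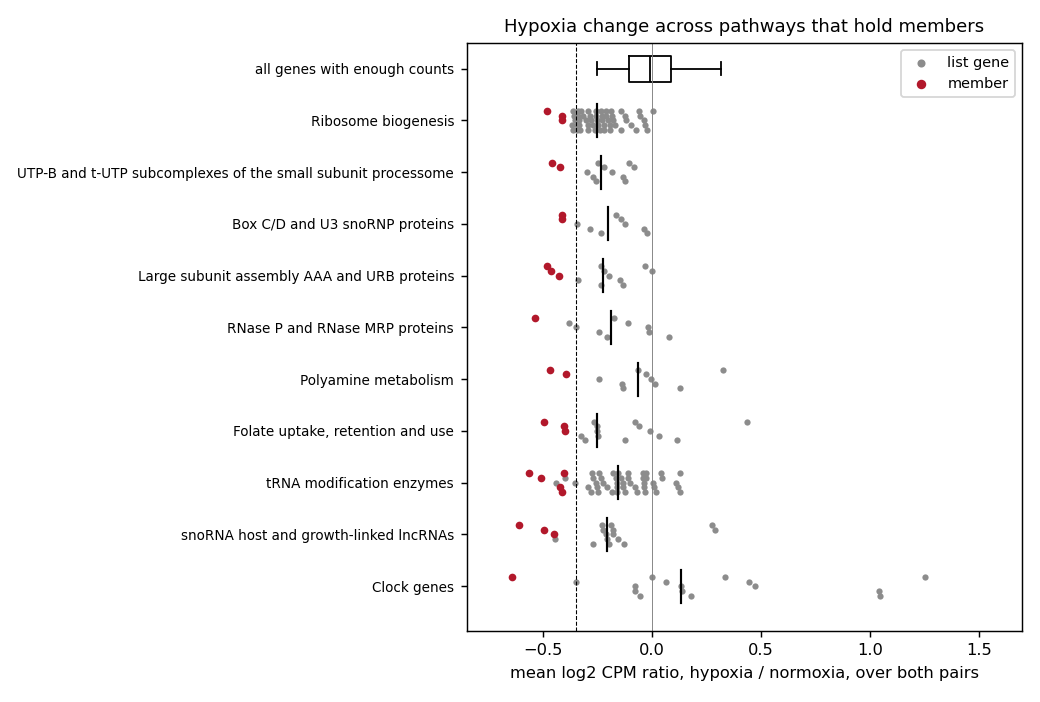
Mean of the 2 log2 ratios of hypoxic to normoxic CPM (x axis) for every gene with enough counts in the ribosome biogenesis list and in 9 lists drawn up around the members, with members in red, medians as black bars, and a dashed line at -0.35. The top box shows the quartiles and median of all 9763 genes, with whiskers from the 5th to the 95th percentile, and most ribosome biogenesis genes lie to the left of its median while the clock genes spread to the right.

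RNA modification gave 5 members. Qtrt1, the catalytic subunit of the enzyme that places queuine in the anticodon of some tRNAs, had 1103 counts in control normoxia, 761 in control hypoxia, 1071 in IFN-γ normoxia and 708 in IFN-γ hypoxia. Its ratios were -0.54 (interval -0.68 to -0.41) and -0.59 (-0.73 to -0.45). Trmt1, a tRNA guanosine methyltransferase, had 4556, 3487, 4857 and 3555 counts. Trmt61a, the catalytic subunit of a tRNA adenosine methyltransferase, the RNA methyltransferase Thumpd2 and the pseudouridine synthase homolog Pusl1 completed the group, with ratios between -0.51 and -0.37. Of the 46 other tRNA modification enzymes with enough counts, in a list drawn up after the values were seen, 33 (71.7%) were lower in both pairs, with medians of -0.08 and -0.14.

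Enzymes at the head of polyamine synthesis were among the most counted members. Odc1, ornithine decarboxylase, had 24968 counts in control normoxia, 19541 in control hypoxia, 26243 in IFN-γ normoxia and 19498 in IFN-γ hypoxia, the highest of all members. Srm, spermidine synthase, had 8513, 6069, 8410 and 6181. The hypoxic level was 77.8% and 74.6% of the normoxic one for Odc1 and 70.9% and 73.7% for Srm in the control and IFN-γ pairs. Spermine synthase, Sms, stood apart from them with 2081, 2081, 2314 and 2127 counts, and Smox, which oxidises spermine, was higher under hypoxic conditions at 382, 500, 515 and 623. Of the 9 other polyamine genes with enough counts, in a list drawn up after the values were seen, 4 (44.4%) were lower in both pairs, against 37.56% of all genes.

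Folate uptake, folate retention and cobalamin processing gave 1 member each. Slc19a1, the reduced folate carrier, had 2667 counts in control normoxia, 1855 in control hypoxia, 2536 in IFN-γ normoxia and 1843 in IFN-γ hypoxia. Fpgs, which adds glutamates that keep folates in the cell, had 2746, 2111, 2820 and 2116, and Mmachc, which processes cobalamin, had 1625, 1219, 1516 and 1156. Their ratios ran from -0.53 to -0.39 over both pairs. Of the 13 other folate genes with enough counts, in a list drawn up after the values were seen, 8 (61.5%) were lower in both pairs. Mthfd1l, a mitochondrial folate enzyme, went the other way with 5960, 8435, 5893 and 7640 counts. Slc29a1, the nucleoside transporter ENT1, had 6455, 4992, 6290 and 4562.

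Among signalling, surface and matrix members the lowest mean ratio was that of Blnk, an adaptor best known from B cell receptor signalling, with 2043 counts in control normoxia, 1247 in control hypoxia, 1766 in IFN-γ normoxia and 1306 in IFN-γ hypoxia. Its 2 hypoxic counts were close together and its 2 normoxic counts were not. The guanine nucleotide exchange factor Arhgef10l, the matrix protein Thbs3, the lysophosphatidic acid receptor Lpar2, the hyaluronidase Hyal2, Klrg2 and the kinase Mast1 had ratios from -0.53 to -0.44 in the control pair and from -0.59 to -0.36 in the IFN-γ pair.

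Glycosylation gave 3 members. Gxylt2, which extends O-linked glucose on Notch receptors with xylose, had 536 counts in control normoxia, 355 in control hypoxia, 585 in IFN-γ normoxia and 317 in IFN-γ hypoxia. Its ratios were -0.60 (interval -0.80 to -0.41) and -0.87 (-1.08 to -0.68). Dpy19l3, which attaches mannose to tryptophan in thrombospondin repeats, had 441, 323, 506 and 323 counts. The 2 hypoxic counts of Dpy19l3 were equal. Nagpa, which uncovers the mannose 6-phosphate tag of lysosomal enzymes, had ratios of -0.49 and -0.52.

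The 6 mitochondrial members carry out unrelated tasks. Mtfp1 acts in mitochondrial fission and had 1396 counts in control normoxia, 1045 in control hypoxia, 1414 in IFN-γ normoxia and 961 in IFN-γ hypoxia. Cox10, which makes the haem A precursor of cytochrome oxidase, had 1007, 773, 981 and 752. Polg2, the accessory subunit of the mitochondrial DNA polymerase, the permeability transition regulator Ppif (cyclophilin D), the nuclease Exog and the dioxygenase homolog Hpdl had ratios between -0.53 and -0.38. The nuclear genes of the respiratory chain itself gave no member among 70 with enough counts, against 0.645% of all such genes. A list of this size could hold none at that share, so this is not read as a result. In edgeR 3 of 71 tested were lowered and 1 raised by hypoxia, against 6.83% and 8.23% of all tested genes. The median ratios were -0.01 in the control pair and -0.07 in the IFN-γ pair.

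Of the transporters, Slco4a1, an organic anion transporter, was the third most counted member, with 8450 counts in control normoxia, 5924 in control hypoxia, 7693 in IFN-γ normoxia and 5463 in IFN-γ hypoxia. Both ratios, -0.52 and -0.49, had intervals wholly under -0.35. The aminoacylase Acy1 and the metal importer Slc39a14 were near the threshold, as was Dffb, the nuclease that cuts DNA in apoptosis, at 4914, 3865, 4581 and 3494 counts. Armc6, an armadillo repeat protein, had 1765, 1246, 1891 and 1225 counts, and Fam189b had 205, 128, 221 and 141, the fewest of all members in control normoxia. The intervals of Fam189b were accordingly wide, -1.02 to -0.36 and -0.96 to -0.33.

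**Figure D4:**
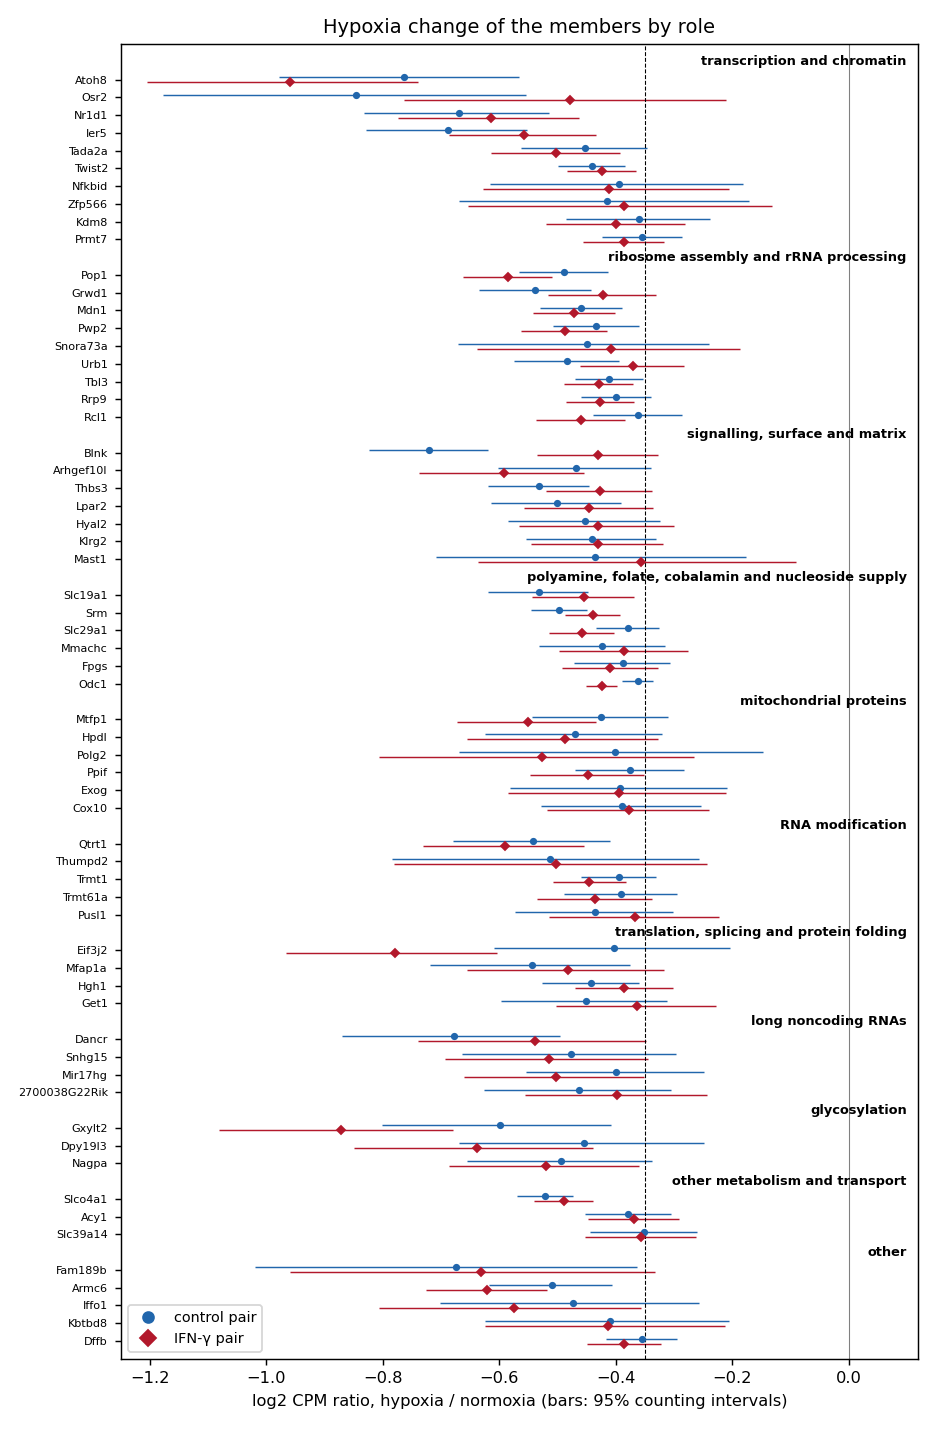
Log2 ratio of hypoxic to normoxic CPM of 62 of the 63 members in the control pair (blue circles) and in the IFN-γ pair (red diamonds), grouped by role, with 95% counting intervals as bars and a dashed line at -0.35. The intervals are narrow for much counted members such as Odc1 and wide for those such as Fam189b, Osr2 and Mast1 with few counts.

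Long noncoding RNAs made up 4 of the 63 members, or 4.08% of the 98 long noncoding RNA genes with enough counts, against 0.61% of the protein-coding genes. Dancr had 617 counts in control normoxia, 387 in control hypoxia, 535 in IFN-γ normoxia and 366 in IFN-γ hypoxia. Snhg15, a host of a small nucleolar RNA, had 586, 423, 658 and 458, and Mir17hg had 816, 622, 839 and 589. The last, 2700038G22Rik, had ratios of -0.46 and -0.40. Of the 14 other snoRNA host and growth-linked long noncoding RNAs with enough counts, in a list drawn up after the values were seen, 12 (85.7%) were lower in both pairs.

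Mir17hg is the host transcript of the miR-17 to miR-92 cluster on chromosome 14 and a known target of MYC. RefSeq on GRCm38.p6 lists 11 mature arms with 9 different seeds within the Mir17hg gene or close to it. The gene as listed there runs from base 115044390 to 115046728. Of the arms printed below, only miR-92a-3p, from 115044476 to 115044496, lies inside it. The other printed arms lie before its start, miR-19b-3p up to 115044380. The 6 arms usually taken as the guide strands are printed with their seed, bases 2 to 8, in capitals, to show the seeds they share, and the other 5 are left out. The miRNAs themselves were not measured in these poly-A libraries.
miR-17-5p: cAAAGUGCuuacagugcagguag
miR-20a-5p: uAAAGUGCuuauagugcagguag
miR-18a-5p: uAAGGUGCaucuagugcagauag
miR-19a-3p: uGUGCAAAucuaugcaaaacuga
miR-19b-3p: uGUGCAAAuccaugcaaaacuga
miR-92a-3p: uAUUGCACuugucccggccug
The miR-17 and miR-20a arms share the seed AAAGUGC, miR-18a differs from it within the seed, and the 2 miR-19 arms share GUGCAAA. These 6 arms hold 4 different seeds.

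For 7 of the 60 members whose exon sequence could be checked, at least 20% of the 31-base words also occurred in another gene, so that reads could be split or shared, and how the counting treated such reads is not given in the sources used here. Eif3j2, a copy of the J subunit of initiation factor eIF3, shared 94.9% with Eif3j1. It had 466 counts in control normoxia, 354 in control hypoxia, 686 in IFN-γ normoxia and 397 in IFN-γ hypoxia, against 6189, 5771, 6381 and 5637 for Eif3j1. Summed, the pair had ratios of -0.13 and -0.22 and would not have been chosen. Mfap1a, a spliceosome protein, shared 63.9% with Mfap1b, which went the other way, from 401 to 505 counts in the control pair and from 442 to 580 in the IFN-γ pair. The sum of these copies had ratios of -0.16 and -0.07, so the lower value of Mfap1a was not shared by its copy.

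Adding the counts of an overlapping neighbour, which is a different gene, also took some others out of the threshold. The sum of Mast1 with Dnase2a had ratios of -0.27 and -0.34, and that of Pusl1 with Ints11 had -0.24 and -0.11. Nr1d1 overlaps Thra, which had 303, 433, 333 and 380 counts, and their sum had -0.26 and -0.34. With the sums formed here in place of the single genes, 58 of the 63 members met the rule, Tbl3 with its neighbour Noxo1 among them (-0.40 and -0.41). Not every member that shares words was summed: 2700038G22Rik, which shares 13.3% with AI506816, was left single. Odc1 (31.3%) and Twist2 (46%) shared words with genes that were not analysed here. A further measure of the same kind, exons that overlap a gene on the opposite strand, applied to 18 members. The libraries kept the strand, but whether the counting used it is not given in the sources used here.

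The IFN-γ contrast was not used to choose the members, and the part of them that passed its test was near that of all genes. In edgeR's additive model, 2 of the 63 members were raised and 0 lowered at an adjusted p under 0.05, against 4.76% and 1.1% of the 13580 tested genes and 4.67% and 1.29% of the 9763 genes with enough counts. At an unadjusted p under 0.05 the counts were 4 raised and 6 lowered. The members' median change was -0.02 (range -0.29 to 0.39), beside a median of -0.01 over all tested genes, and 29 members were above 0 and 34 under it. With 1 library per condition this model takes its spread from the departure from additivity, with 1 residual degree of freedom pooled across genes, so that differences between cultures and any interaction of IFN-γ with hypoxia are mixed in it.

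Eif3j2 rose by 0.39 on the log2 scale (SE 0.109, adjusted p = 0.00778), and Ier5 rose by 0.25 (SE 0.0826, adjusted p = 0.0375). Both were higher with IFN-γ in both oxygen levels, in 686 against 466 and 397 against 354 counts for Eif3j2 and in 1272 against 1118 and 860 against 697 for Ier5. For Eif3j2 and its near-identical copy Eif3j1 summed, the counts with IFN-γ were 7067 against 6655 under normoxic and 6034 against 6125 under hypoxic conditions, or log2 ratios of CPM of 0.08 and -0.02, so the sum was not higher in both. Neither call was kept by DESeq2's Wald test (adjusted p = 1 for both) or without oxygen in the model (0.999 for both), and Ier5 lost it under DESeq2's size factors (adjusted p = 0.0651) and without a filter on low counts (0.0957). Atoh8, which had the lowest IFN-γ change of all members at -0.29 (SE 0.119), and Pusl1, at -0.20, were not called (adjusted p = 0.165 and 0.19).

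**Figure D5:**
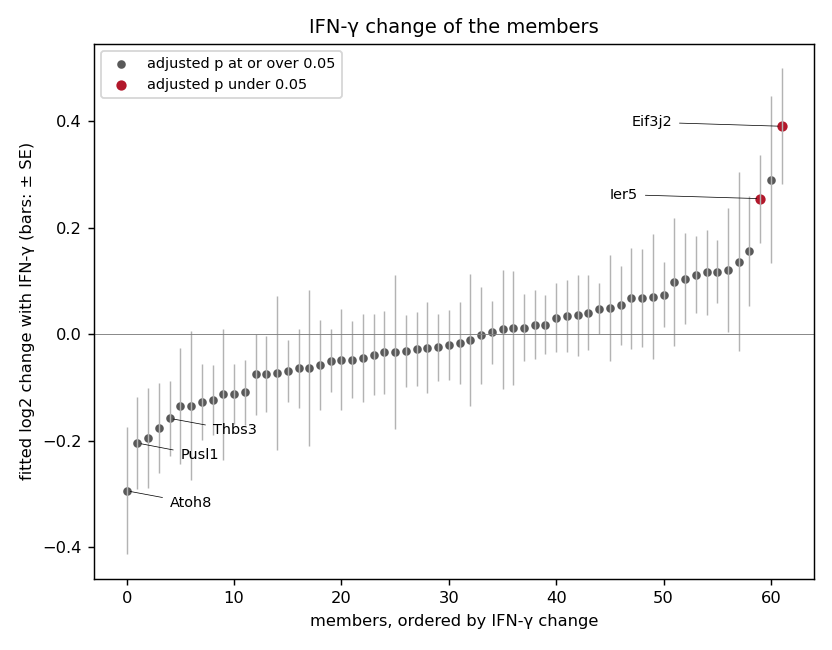
Fitted log2 change with IFN-γ (y axis, edgeR, bars ± SE) of 62 of the 63 members, ordered from lowest to highest (x axis), with the 2 genes at an adjusted p under 0.05 in red. Most points lie within 0.2 of 0.

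The ratio of hypoxic to normoxic CPM was similar without and with IFN-γ for most members, which the rule favours because it asks for both. It was lower with IFN-γ for 35 members and lower without it for 28. The counting interval of the difference left out 0 for 4 members, against 34.75% of all genes with enough counts. These were Eif3j2 (-0.38, interval -0.64 to -0.11), Slc29a1 (-0.08, -0.16 to -0.002), Odc1 (-0.06, -0.10 to -0.02) and Blnk (0.29, 0.15 to 0.43), where a negative value means a lower ratio with IFN-γ. Among the 44 members with at least 500 counts in every library, the ratio was lower with IFN-γ by most in Mtfp1, Arhgef10l and Armc6 (-0.13, -0.12 and -0.11) and lower without it by most in Blnk, Ier5 and Grwd1 (0.29, 0.13 and 0.12). Apart from Blnk, the intervals of these 6 included 0. The difference between the pairs cannot be tested with 1 library per condition.

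Features the rule did not use were compared next, as a description. The members' exons had a median GC content of 53.7%, against 49.4% for all genes with enough counts and 50.8% for the 264 raised genes. In 4 classes of equal size from lowest to highest GC content, 3, 11, 18 and 28 members were found, or 0.126%, 0.461%, 0.755% and 1.17% of each class. The median ratio of all genes in these classes moved little, from 0.03 to -0.05 in the control pair and between -0.02 and 0.01 in the IFN-γ pair, and the part of GC content in the choice of members was not tested. By class, 10 of 10, 15 of 16, 15 of 18 and 12 of 12 ribosome biogenesis genes were lower in both pairs. The shares of all genes in each class were 31.6%, 38.64%, 40.55% and 38.94%. Both rest on the hypoxia ratios that the rule used. The median exon length was 3349 bases against 4672, and the median level in control normoxia was 12.8 CPM per kilobase against 9.93.

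The members lay on 18 chromosomes, with 8 on chromosome 4 and 6 on chromosome 11. The nearest neighbours were Fam189b and Thbs3 on chromosome 3, with 25889 bases between them, and Acy1 and Rrp9 on chromosome 9, with 39073. The next pair, Mmachc and Hpdl on chromosome 4, lay 111522 bases apart.

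RefSeq promoter windows, from 250 bases before to 50 after the start, were at hand for 52 members and 7860 genes with enough counts. On either strand, the E-box CACGTG was in 13 of the 52 (25%), against 12.5% of the 7860, 14.6% of the raised genes, 21.6% of the ribosome biogenesis genes and 8.09% of all 27025 genes with a window. The carriers were Acy1, Atoh8, Grwd1, Lpar2, Mdn1, Nagpa, Pusl1, Qtrt1, Slc29a1, Snhg15, Tada2a, Thumpd2 and Trmt61a. The core of the hypoxia response element, ACGTG, which the E-box contains, was in 38.5% of members, 54.2% of raised genes and 31.1% of genes with enough counts. Members and all genes with enough counts held the CCAAT box CCAAT in 42.3% and 44.0% and the GC box GGGCGG in 71.2% and 72.7%. The TATA box TATAAA was in 1.92% of members and 7.67% of these genes. More motifs were searched than are given here, and shares differed for some others too. The short cAMP response element TGACGT was in 7.69% of members and 14.4% of genes with enough counts. For the STAT site the shares were 3.85% and 7.99%, and for the YY1 site 9.62% and 5.94%. None of these differences was tested. Myc itself had ratios of -0.21 in the control pair and -0.03 in the IFN-γ pair, and its part in the members was not tested. A match says only that these letters are in the window.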

How the data were processed

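The authors deposited raw counts of reads per NCBI gene in 1 table, with 1 column for each of the 4 libraries, without normalization. The libraries were strand-specific and made from poly-A RNA per the labels, although the paper calls them total RNA. Reads were aligned with HISAT2 per the paper, and featureCounts and mm10 are named in the submitters' processing notes. The versions, the annotation, the strand setting and the treatment of multi-mapping reads are not given in the sources used here. No column was without a sample.

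Each deposited count was divided by its column total to give CPM. Counting intervals were exact 95% Clopper-Pearson intervals of the 2 counts. Symbols were matched for 25275 of 27179 gene IDs through RefSeq GRCm38.p6, the assembly behind mm10. The IFN-γ contrast, and the hypoxia contrast for gene lists, used edgeR 4.0.16 in R 4.3.3. The quasi-likelihood model was additive in oxygen and IFN-γ, with TMM and the default filter with a minimum of 10 counts. Benjamini-Hochberg adjustment ran over 13580 genes, with a threshold of 0.05. The code was tested on data simulated without an oxygen effect and with a small fixed spread. That test does not show how the calls hold under real spread between cultures. DESeq2 1.42.0, other scalings, minimum counts, pseudocounts and thresholds were alternatives. The members and the lists were chosen with earlier results of these data known, and the roles and the lists so named after the values were seen. Named were the 12 members with the lowest mean ratio, the 8 most counted, list members, those near the threshold, those called for IFN-γ and those that differed most between pairs. Others were named to account for their role, after their values were seen. Exon words, lengths and GC content came from GENCODE transcripts of GRCm38, and the E-box and other motifs were searched on both strands. Of the members, 1 gene is not reported here by name or value.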

Additional observations from a re-analysis of the deposited data

How the results depend on the processing

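The number of members, 63, was 59 with TMM factors, 62 with DESeq2's size factors and 60 with a pseudocount of 1 CPM. It moved to 115 with at least 50 counts, 36 with at least 1000 and 608 with no minimum, and to 9 at a threshold of -0.5, 259 at -0.25 and 14 where the upper bound of the counting interval had to reach -0.35. In the control pair alone it was 260 and in the IFN-γ pair alone 232. The number of members in any of the lists chosen for pathways, 6, moved to 0 at -0.5, 37 at -0.25, 0 with the upper bound, 24 in the control pair and 27 in the IFN-γ pair. Chosen after seeing the data, leaving out the 7 members that share words with another gene gave 56, and summing members with their partners gave 58. The number of members raised by IFN-γ, 2, was 1 with DESeq2's size factors, 1 without a filter, 0 with DESeq2 and 0 without oxygen in the model, and 0 were lowered in any of these. The median hypoxia ratios stayed between -0.45 and -0.44. The median ratio of all genes lay between -0.01 and -0.0004 under the 3 scalings, and with TMM or size factors 51 in place of 52 ribosome biogenesis genes were lower in both pairs. No paired analysis was possible because each condition has 1 library, and no library could be left out of a pair for the same reason. Depth limits members near 200 counts most, and the spread between cultures was not measured.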
